A study of Mus musculus with 6 samples.

Results

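The vacuolar ATPase (V-ATPase) was examined in mouse heart through 10 of its subunit genes: the isoform pair Atp6v1g2 and Atp6v1g1, the isoform pair Atp6v0e2 and Atp6v0e, and the partner subunit genes Atp6v1a, Atp6v1b2, Atp6v1d, Atp6v1f, Atp6v0c and Atp6v0d1. The genes were selected by name with the KO and Ctrl signals of these same arrays already known, so the KO minus Ctrl difference is among the values that chose them, and every probe annotated to them was taken. Of the 10, 9 had a probe among the 16593 genes on the array, and 9 passed the detection filter that left 7579 genes for testing. Atp6v0c had no probe in the annotation used and is not analysed here. The members are represented by 13 probes, of which 12 were detected.

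The knockout (KO) group comprised 3 hearts of Nelf-b f/f; CreER mice, which carry floxed alleles of the gene for subunit B of the negative elongation factor (NELF) and CreER, a Cre recombinase that tamoxifen activates. The control (Ctrl) group comprised 3 hearts of Nelf-b f/f mice, with the same floxed alleles and no CreER. Both groups were female C57BL/6J mice on regular chow; tamoxifen was given when they were 8 weeks old, and hearts were taken at 20 weeks after a fast of 5 hours. The effect of CreER itself therefore cannot be told apart from that of the deletion, and the labels do not name the promoter that drives CreER or the deleted exons. RNA from hearts was hybridised to Illumina bead arrays, with 1 array per sample; the labels do not say more of how samples relate to animals, so p-values measure the spread between these samples.

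The V-ATPase is a rotary proton pump that acidifies lysosomes, endosomes and secretory vesicles. Its cytosolic V1 sector hydrolyses ATP in a ring of A and B subunits, a shaft that includes D and F turns inside that ring, and peripheral stalks of E and G subunits hold the ring still. The membrane V0 sector carries protons through a ring of c subunits beside subunit a, with subunit d at the foot of the shaft and the small membrane subunit e at its side. In mammals several subunits have more than 1 gene: the G1 and e1 isoforms are made in most tissues, whereas G2 and e2 are enriched in brain, and G3, B1, a4 and d2 are restricted to kidney and a few other tissues. In heart muscle the pump keeps lysosomes and recycling endosomes acidic, and on lysosomes it takes part in the control of mTORC1 by nutrients.

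The 2 deposited tables name the groups in opposite ways, and groups here follow the sample records. Over all probes, a non-normalized column headed KO ranked its probes exactly as the value-table column of the like-numbered Ctrl sample did, and the reverse (Spearman rho of 1, against at most 0.854 for any other column). Under the header names every sign below turns. Nelfb, the gene targeted in the KO mice, had a normalized log2 signal of 5.41, 5.46 and 5.46 in KO hearts, against 7.01, 7.08 and 7.07 in Ctrl hearts. This is the reading of its brightest probe, with a log2 difference of -1.61. With the mean of its detected probes the difference was smaller, -1.28. Whether the probe used falls inside the deleted stretch was not determined. Of 13 cardiomyocyte marker genes with a probe, 12 were tested and 0 called, and 6 had a positive and 6 a negative log2 difference. Of the 12, 4 had groups that did not overlap, and among all genes tested 24.9% had such groups. The log2 difference was -1.05 ± 0.32 SE for the troponin gene Tnni3 (limma adjusted p = 0.0948, groups overlapping), 0.40 ± 0.13 SE for Actn2 (0.104, no overlap) and -0.05 ± 0.14 SE for the myosin gene Myh6. The share of probes detected was 38.8% to 43.8% over the arrays. Of the 7579 genes tested, 170 were called higher and 152 lower in KO hearts, or 4.25% in all (limma, Benjamini-Hochberg adjusted p below 0.05). The count of 322 became 208 without KO replicate 1, 118 without KO replicate 2, 140 without KO replicate 3, 151 without Ctrl replicate 2 and 94 without Ctrl replicate 3. It rose to 380 without Ctrl replicate 1. Ctrl replicate 1 stood apart on the second principal component, at 18.71 against -8.55 to 1.64 for the other arrays. Fewer cells of a type and less RNA per cell cannot be told apart in whole tissue.

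Of the 9 members measured, 1 was called higher and 1 lower, and both calls fell on the brain-enriched isoforms. The V1 stalk gene Atp6v1g2 was 2.60-fold higher in KO hearts and the V0 gene Atp6v0e2 was 2.0-fold lower, while the widespread isoforms Atp6v1g1 and Atp6v0e and the 5 partner subunits measured were not called. Among all genes 2.24% were called higher and 2.01% lower. Because the members were picked with this comparison in view, these calls and all values of the members in it are given as a description and carry no test of the group.

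Atp6v1g2, which encodes the G2 isoform of the peripheral stalk, had a normalized log2 signal of 6.78, 6.62 and 6.92 in KO hearts, against 5.38, 5.45 and 5.36 in Ctrl hearts. All 3 KO arrays lay above all 3 Ctrl arrays, by more than 1 log2 unit between the nearest arrays. The log2 difference was 1.38 ± 0.14 SE (95% confidence interval 1.08 to 1.68, adjusted p = 0.000699 from limma over all genes), which ranked 16 among the rises of all genes tested. In the authors' value table, on a linear scale, the probe read 243.0, 226.1 and 260.0 in KO hearts and 135.5, 139.0 and 134.8 in Ctrl hearts. Before normalization the groups were also apart, with intensities of 202.1, 178.1 and 165.5 in KO and 113.5, 143.0 and 88.5 in Ctrl hearts. This result rests on 1 probe. The other Atp6v1g2 probe was not detected on any of the 6 arrays, with detection p-values between 0.321 and 0.914, and gives no second reading.

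Atp6v1g1, which encodes the widespread G1 isoform that occupies the same place in the stalk, had 7.06, 7.36 and 7.25 in KO hearts, against 6.91, 7.09 and 7.53 in Ctrl hearts (normalized log2 signal). The groups overlapped, and Ctrl replicate 3 was the highest and Ctrl replicate 1 the lowest of the 6 arrays. The log2 difference was 0.05 ± 0.17 SE, with an interval of -0.33 to 0.43.

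Within each array, Atp6v1g2 minus Atp6v1g1 was -0.29, -0.74 and -0.33 in KO hearts, against -1.53, -1.64 and -2.16 in Ctrl hearts (log2). Signals of different probes cannot be compared as levels, so only the shift between groups has a meaning: 1.33 log2 units towards G2 in KO hearts, or 2.51-fold. The groups did not overlap. The shift was 0.73 in the authors' value table with an added 16, and 0.57 with no background correction, so its direction was kept and its size depends on how background is treated.

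Atp6v0e2, which encodes the e2 isoform of the small V0 membrane subunit, had a normalized log2 signal of 4.99, 4.71 and 4.89 in KO hearts, against 6.15, 5.78 and 5.67 in Ctrl hearts. All 3 KO arrays lay below all 3 Ctrl arrays. The log2 difference was -0.999 ± 0.16 SE (95% confidence interval -1.35 to -0.65, adjusted p = 0.00617 from limma over all genes), which ranked 36 among the falls of all genes tested. The KO signals were close to the floor of the array: the lowest detected signal averaged 4.62 over the 6 arrays, and the highest detection p of the probe on a KO array was 0.0351. With median scaling in place of quantile normalization the log2 difference was -1.03 and was not called (adjusted p = 0.0926, against 0.00163 to 0.0358 in the other 16 alternative settings).

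The values of Atp6v0e2 before normalization show how far this result needs the scaling between arrays. The intensities were 113.2, 103.8 and 98.2 in KO hearts and 139.8, 161.3 and 94.8 in Ctrl hearts, and the groups overlapped through Ctrl replicate 3. That array had the lowest mean signal of all, 169.8 against 208.0 to 259.9 on the KO arrays and 228.2 and 310.3 on the other Ctrl arrays. In the authors' value table the probe read 118.7, 107.7 and 114.6 in KO hearts and 183.9, 158.5 and 151.1 in Ctrl hearts, with no overlap. Without Ctrl replicate 3 the normalized log2 difference was -1.13.

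Atp6v0e, which encodes the widespread e1 isoform, had 8.42, 8.73 and 8.69 in KO hearts, against 8.83, 8.67 and 8.31 in Ctrl hearts (normalized log2 signal). The Ctrl arrays spanned the KO arrays on either side. The log2 difference was 0.02 ± 0.17 SE, with an interval of -0.35 to 0.38.

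Atp6v0e2 minus Atp6v0e within each array was -3.43, -4.02 and -3.80 in KO hearts, against -2.68, -2.88 and -2.64 in Ctrl hearts (log2). The shift was -1.01 log2 units, away from e2 in KO hearts, or 2.02-fold, again with no overlap. It came to -0.33 when background was not corrected, to -0.48 from the deposited value table and to -0.56 at offset 50, so its size too depends on how background is treated. The 2 isoform pairs thus shifted in opposite directions, towards the brain-enriched gene in the G pair and away from it in the e pair.

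**Figure D1:**
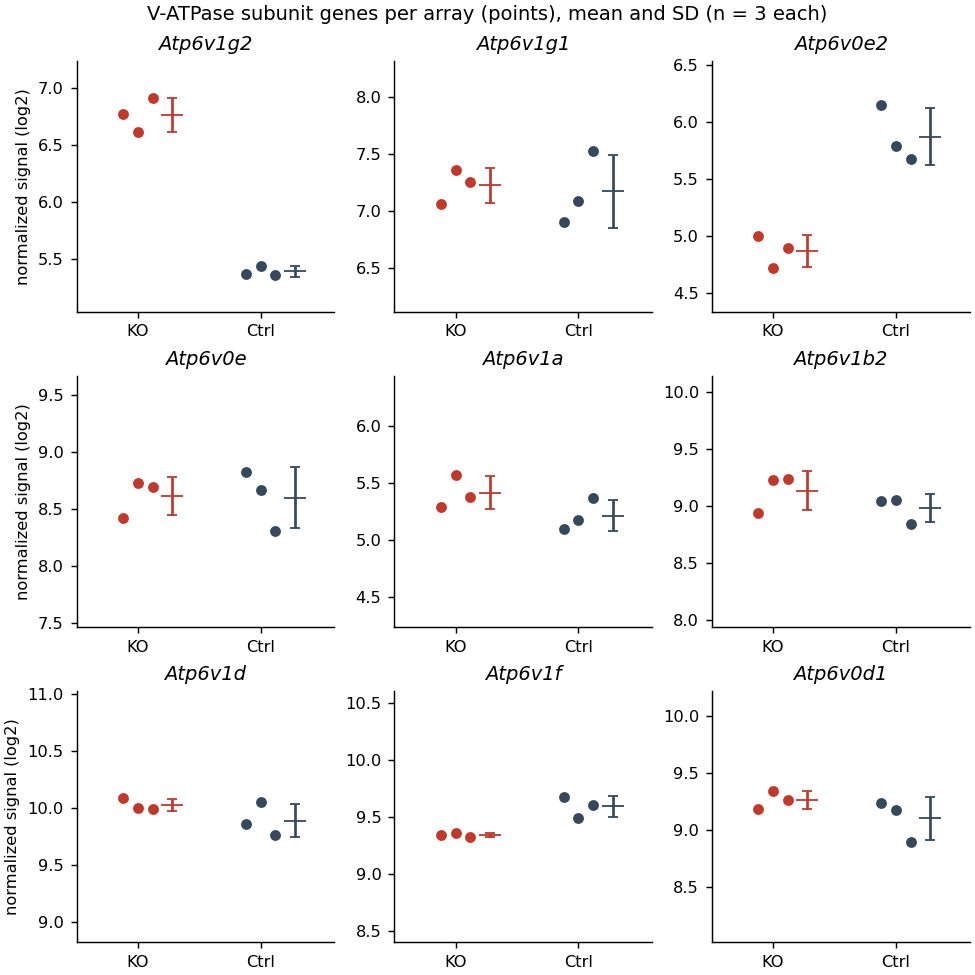
Normalized log2 signal of the 9 measured members on each array, with KO hearts at left and Ctrl hearts at right of each panel; points are arrays and the bars at their side give the mean and SD (n = 3 each). All panels have the same log2 span: KO and Ctrl points separate for Atp6v1g2 and Atp6v0e2, and overlap for 6 of the other 7, Atp6v1f being the exception.

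**Figure D2:**
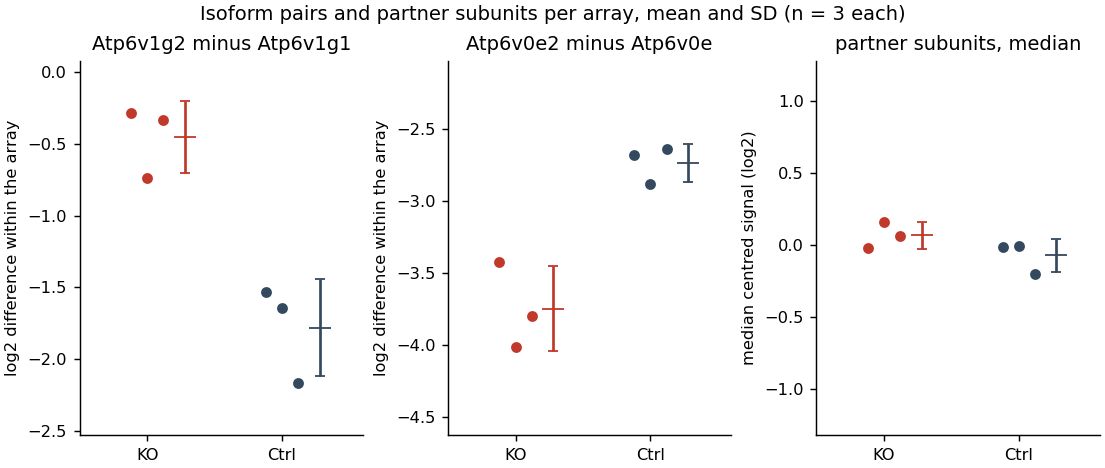
Difference within each array between the isoforms of a pair (left and middle) and the median of the 5 measured partner subunits after centring each on its own mean (right), all in log2 units, for KO and Ctrl hearts with mean and SD (n = 3 each). The pairs shifted by 1.33 and -1.01, and the partner medians of the groups overlapped.

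The partner subunits, measured on the same arrays, showed no shift of that size. Of the 5, 4 had a positive and 1 a negative log2 difference, 0 were called, and the median was 0.15, against 0.01 for all genes tested, of which 50.9% were positive. The array medians, after each gene was centred on its own mean, were -0.02, 0.16 and 0.06 in KO hearts and -0.01, -0.00 and -0.20 in Ctrl hearts. They overlapped, with Ctrl replicate 3 the lowest. Of these partners A, D and F have a single gene each, while B2 and d1 have kidney-type counterparts, B1 and d2, that were not detected here.

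The catalytic A subunit gene Atp6v1a had 5.29, 5.57 and 5.38 in KO hearts, against 5.10, 5.17 and 5.37 in Ctrl hearts (normalized log2 signal), a log2 difference of 0.20 ± 0.14 SE. KO replicate 1 lay below Ctrl replicate 3, so the groups overlapped. Atp6v1b2, for the B subunit that alternates with A in the ring, had 8.93, 9.22 and 9.24 in KO hearts, against 9.05, 9.05 and 8.84 in Ctrl hearts, a log2 difference of 0.15 ± 0.15 SE. The groups overlapped here too, through KO replicate 1.

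The rotor shaft genes went in opposite directions without a call. Atp6v1d had 10.093, 10.005 and 9.996 in KO hearts, against 9.86, 10.05 and 9.76 in Ctrl hearts, a log2 difference of 0.14 ± 0.14 SE. Atp6v1f had 9.34, 9.36 and 9.33 in KO hearts, against 9.68, 9.50 and 9.61 in Ctrl hearts, a log2 difference of -0.25 ± 0.13 SE. Its groups did not overlap, as was the case for 24.9% of all genes tested, and its adjusted p of 0.300 (limma) was not past the threshold. The interval of -0.54 to 0.03 leaves room for a fall of up to that size.

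Atp6v0d1, for the d subunit that couples the shaft to the c ring, was the only member with several detected probes. Its brightest probe had 9.18, 9.34 and 9.26 in KO hearts, against 9.24, 9.17 and 8.89 in Ctrl hearts, a log2 difference of 0.16 ± 0.14 SE. The other 3 probes gave log2 differences of 0.21, 0.03 and -0.15, and 0 of the 4 probes was called when every detected probe was tested. Over the 5 partners the upper bound of the 95% confidence interval was at most 0.52, below the lower bound of 1.08 for Atp6v1g2, and the lowest lower bound was -0.54, above the upper bound of -0.65 for Atp6v0e2. This is a description, since the genes were chosen with that contrast known; the intervals of Atp6v1g1 and Atp6v0e lay among those of the partners.

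The other V-ATPase genes on the array, which the list of members leaves out, were 15, of which 10 were tested and 0 called higher or lower. The share called among all genes tested was 4.25%. Of the 10, 8 had a positive and 2 a negative log2 difference, and the median was 0.13. Atp6v1h, for the H subunit that links ATP hydrolysis to proton flow, had the largest value: 8.14, 8.65 and 8.30 in KO hearts, against 7.88, 8.17 and 7.90 in Ctrl hearts, a log2 difference of 0.38 ± 0.16 SE (limma adjusted p = 0.224). Atp6ap2, for an accessory protein of the V0 sector also known as the prorenin receptor, had 9.09, 9.09 and 9.09 in KO hearts, against 9.06, 8.56 and 8.57 in Ctrl hearts, a log2 difference of 0.36 ± 0.16 SE (limma adjusted p = 0.237). Its groups did not overlap, as for 24.9% of all genes tested, and Ctrl replicate 1 lay only just below the KO arrays. Another of its probes, detected on 2 KO and 0 Ctrl arrays, did not pass the filter.

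The stalk partner of the G subunits, Atp6v1e1, had a log2 difference of -0.05 ± 0.13 SE, and the C subunit gene Atp6v1c1 had 0.11 ± 0.14 SE. In the V0 sector the log2 difference was 0.18 ± 0.14 SE for Atp6v0a1, 0.12 ± 0.16 SE for Atp6v0a2, -0.01 ± 0.19 SE for Tcirg1, which encodes a3, and 0.14 ± 0.14 SE for Atp6v0b, which encodes the c'' subunit of the ring. The other detected Tcirg1 probe gave a log2 difference of -0.15. The accessory gene Atp6ap1 had 0.15 ± 0.13 SE. The weakly detected Atp6v1c2, past the detection limit on 3 KO and 2 Ctrl arrays, had 0.10 ± 0.13 SE. None of these values was called, and none had an interval that reached the size of the Atp6v1g2 or Atp6v0e2 difference. This too is a description, since Atp6v1g2 and Atp6v0e2 were chosen with their differences known.

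**Figure D3:**
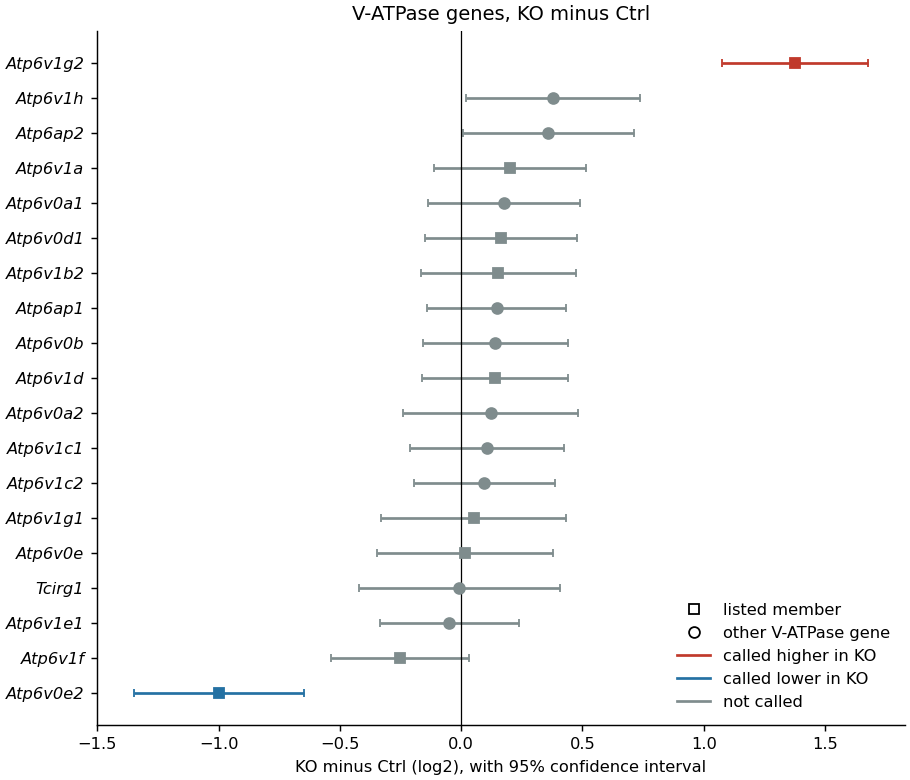
Log2 difference, KO minus Ctrl, of the 19 V-ATPase genes tested, ordered by size, with 95% confidence intervals from limma (3 arrays per group); squares are the listed members and circles the other V-ATPase genes. Atp6v1g2 at 1.38 and Atp6v0e2 at -0.999 lie outside the range of -0.25 to 0.38 of the other 17.

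The remaining 5 genes of the family, Atp6v0a4, Atp6v0d2, Atp6v1b1, Atp6v1e2 and Atp6v1g3, were not detected on any array. They encode isoforms known from kidney, bone, epididymis or testis. With G3 undetected, G1 and G2 were the G isoforms detected in these hearts.

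Because G2 and e2 are enriched in brain, neuronal markers were read beside them. Of 17 neuron marker genes with a probe, 11 were not detected on any array, among them Th, Chat, Snap25, Syt1 and Prph, and 3 were tested. The summed linear signal of those 3 ran from 109 to 132 in KO hearts and from 100 to 123 in Ctrl hearts. Uchl1 had a log2 difference of 0.32 ± 0.19 SE, Stmn2 of 0.28 ± 0.18 SE and Syp of -0.24 ± 0.18 SE, and 0 were called. Of 5 Schwann cell markers with a probe 3 were tested, with 0 called and sums of 182 to 238 in KO and 232 to 240 in Ctrl hearts. Over all genes tested 4.25% were called.

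Among other cell types that could bring V-ATPase transcripts, macrophage and leukocyte markers had 11 of 13 genes tested, 0 called and a median log2 difference of -0.17, with sums of 1442 to 1928 in KO and 1774 to 1872 in Ctrl hearts. Of the 6 genes of kidney-type proton-secreting cells 0 were tested, and 5 were not detected on any array. Of 6 smooth muscle and pericyte markers tested, 3 had a positive and 3 a negative log2 difference with a median of -0.03, and 1, Acta2, was called lower (-0.84 ± 0.18 SE). Their summed signal was 1715 to 2355 in KO and 2900 to 3676 in Ctrl hearts. Most of this sum was the signal of Acta2 itself, so it is not a separate reading of the cell type. Of 3 adipocyte markers tested, 2 had a positive difference, Lep with 0.36 and Adipoq with 0.07, and 1, Cidea, was called lower (-0.65 ± 0.16 SE). Their summed signal was 239 to 304 in KO and 358 to 399 in Ctrl hearts, and most of it was likewise the signal of Cidea. The Acta2 call held in 12 of 17 alternative settings. It was lost without KO replicate 2 (adjusted p = 0.110), KO replicate 3 (0.0674) or Ctrl replicate 3 (0.123), with median scaling (0.443) and with no detection filter (0.0956, limma). That of Cidea held in 9 of 17 and was lost without any single array other than KO replicate 2 (0.0589 to 0.164), with median scaling (0.795), with no detection filter (0.0956) and with the replicate block (0.0771). All 4 erythroid markers tested had a positive log2 difference, with a median of 0.64 and 1.09 ± 0.57 SE for the globin gene Hba-a1, and 0 were called. Their sums, 5971 to 16761 in KO and 1604 to 10296 in Ctrl hearts, overlapped. Fibroblast markers (8 tested, median 0.02) and endothelial markers (8 tested, median 0.06) had 0 called and sums that overlapped between groups. For scale, 2.24% of all genes tested were called higher and 2.01% lower. The part of these cell types in the Atp6v1g2 and Atp6v0e2 differences was not tested.

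NELF acts just downstream of transcription start sites, so the annotated start regions of the members are shown. RefSeq (GRCm38.p6) gave 11 start windows for 8 of the 10 members, and none was used for Atp6v1g1 and Atp6v1b2. Each window holds 250 bases before and 50 after the start. They were searched on both strands for TCACGTGA, the core of the CLEAR element that the lysosomal regulator TFEB binds, for CCAAT, for GGGCGG (a GC box) and for TATAAA. The windows below are cut to 140 bases before and 15 after the start, given for the 4 windows of the paired genes and for the 2 partners with TCACGTGA, and capitals mark TCACGTGA, CCAAT or GGGCGG on either strand. The first 2 are the alternative starts of Atp6v1g2, at chr17:35234870-35235024 and chr17:35236456-35236610 (plus strand), followed by Atp6v0e2 at chr6:48537429-48537583 (plus), Atp6v0e at chr17:26676256-26676410 (plus), Atp6v1a at chr16:44139245-44139399 (minus) and Atp6v0d1 at chr8:105566050-105566204 (minus).
Atp6v1g2, upstream start: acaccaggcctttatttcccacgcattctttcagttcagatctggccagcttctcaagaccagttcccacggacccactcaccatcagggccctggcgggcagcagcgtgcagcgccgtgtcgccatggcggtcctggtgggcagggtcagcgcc
Atp6v1g2, downstream start: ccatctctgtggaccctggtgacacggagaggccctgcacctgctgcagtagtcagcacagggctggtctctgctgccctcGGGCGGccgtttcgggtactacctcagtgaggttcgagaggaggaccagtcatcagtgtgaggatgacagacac
Atp6v0e2: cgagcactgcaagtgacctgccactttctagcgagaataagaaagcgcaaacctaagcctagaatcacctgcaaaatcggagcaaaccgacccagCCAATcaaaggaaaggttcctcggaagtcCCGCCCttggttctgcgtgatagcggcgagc
Atp6v0e: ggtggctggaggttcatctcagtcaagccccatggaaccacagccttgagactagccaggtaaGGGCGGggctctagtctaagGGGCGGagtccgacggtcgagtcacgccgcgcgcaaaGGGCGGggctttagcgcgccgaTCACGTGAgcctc
Atp6v1a: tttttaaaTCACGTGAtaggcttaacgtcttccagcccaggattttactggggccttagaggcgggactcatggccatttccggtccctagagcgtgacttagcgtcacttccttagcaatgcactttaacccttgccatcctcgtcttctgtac
Atp6v0d1: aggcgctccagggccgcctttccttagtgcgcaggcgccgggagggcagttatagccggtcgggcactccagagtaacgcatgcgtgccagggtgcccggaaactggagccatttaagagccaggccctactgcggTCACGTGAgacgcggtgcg

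TCACGTGA occurred in 3 of the 11 windows, those of Atp6v0e, Atp6v1a and Atp6v0d1, against 0.974% of 32851 promoter windows of the same length in RefSeq. In Atp6v0e it began at base 3 of the transcript, in Atp6v0d1 it began 4 bases before the start and in Atp6v1a 132 bases before it. These 3 genes were not called. The windows of Atp6v1g2 and Atp6v0e2 did not hold these letters, nor did those of 7 other V-ATPase genes with a window. In the e pair, Atp6v0e held 3 copies of GGGCGG beside its TCACGTGA, whereas Atp6v0e2 held 1 copy of GGGCGG and 2 of CCAAT, 1 of them outside the stretch printed. Atp6v0e2 was the only member with CCAAT, which 37.4% of all windows had. CCAAT was also held by 5 of the 7 other V-ATPase genes with a window, and 0 of those genes were called. GGGCGG was held by 6 of 8 members and by 7 of these 7 other genes. The upstream window of Atp6v1g2 held none of the 4 motifs, and the downstream one 1 copy of GGGCGG, found in 35.7% of all windows. TATAAA was in 0 of the 11 windows, against 13.6% of all. Member windows held 10 to 30 CpG each, against a median of 7 over all windows, so these shares do not compare like windows. The arrays do not show which Atp6v1g2 start is used in heart, and a match of letters is a description of the window only.

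Genes beside the paired isoforms on the chromosome were measured where the array allowed. Downstream of Atp6v1g2 lies Ddx39b, for an RNA helicase of mRNA export, with 10.25, 10.15 and 10.27 in KO hearts, against 10.41, 9.88 and 10.11 in Ctrl hearts and a log2 difference of 0.09 ± 0.16 SE. On its other side Nfkbil1, whose annotation overlaps Atp6v1g2, did not pass the detection filter. The neighbours of Atp6v0e2, Sspo and Lrrc61, were not tested. Beside Atp6v1g1, Whrn had -0.46 ± 0.18 SE and Tmem268 had 0.11 ± 0.20 SE, and beside Atp6v0e, Ergic1 had 0.10 ± 0.14 SE while Crebrf was not tested. Of the 4 neighbours tested 0 were called, against 4.25% of all genes tested.

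Genes with the most similar profile were sought by the root-mean-square distance between log2 profiles over the 6 arrays, each centred on its mean. Closest to Atp6v1g2 were Ckb, the brain-type creatine kinase (distance 0.14), the histone gene H3c4 (0.16) and Cdkn1a, for the cell cycle inhibitor p21 (0.17), where the median over all genes was 0.71. Closest to Atp6v0e2 were Tmod4, a tropomodulin of striated muscle (0.04), Lypd2 (0.06) and Pink1, a kinase of mitochondrial quality control (0.11), against a median of 0.56. All 3 neighbours of Atp6v1g2 in profile were called higher and all 3 of Atp6v0e2 lower, which follows from the measure. For Atp6v1g1 the closest were Scmh1 (0.04), Ccdc61 and Cmtm7, and for Atp6v0e St3gal6 (0.03), Wsb1 and Hnrnpa1, with 0 of these 6 called.

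Assembly factors and regulators of the pump held 7 tested genes of 10 with a probe, including Atp6ap1 and Atp6ap2. Of the 7, 5 had a positive and 2 a negative log2 difference, 0 were called, and the median was 0.15. Rnasek, for a small membrane protein that binds the V-ATPase, had 8.10, 8.21 and 8.19 in KO hearts, against 7.45, 8.00 and 7.96 in Ctrl hearts, a log2 difference of 0.36 ± 0.17 SE. All KO arrays were above all Ctrl arrays, though the adjusted p was 0.244 (limma). For scale, 24.9% of all genes tested had groups that did not overlap, and 4.25% were called.

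The Ragulator and Rag proteins, which bind the V-ATPase on lysosomes and recruit mTORC1, held 14 tested genes together with mTORC1 subunits and TFEB-family factors. Of the 14, 0 were called higher and 1 lower, against 2.24% and 2.01% of all genes tested, and the median log2 difference was -0.12. The gene called was Rragb, for a Rag GTPase, with 4.62, 4.54 and 4.97 in KO hearts, against 5.21, 5.37 and 5.56 in Ctrl hearts, a log2 difference of -0.67 ± 0.16 SE (limma adjusted p = 0.0416). Its probe was detected on 1 of 3 KO arrays and on 3 of 3 Ctrl arrays, so the KO level lies near the floor of the array. The call held in 7 of 17 alternative settings. It was lost without KO replicate 1, KO replicate 2, Ctrl replicate 2 or Ctrl replicate 3 (adjusted p = 0.104 to 0.148), and with no background correction (0.123), the value table (0.0565), an offset of 50 (0.0685), median scaling (0.652), no detection filter (0.0932) or the replicate block (0.0525, limma).

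Lysosomal hydrolases and membrane proteins, which work in the acid lumen the pump maintains, held 39 tested genes. Of the 39, 0 were called higher and 3 lower, 16 had a positive and 23 a negative log2 difference, and the median was -0.05. Among all genes tested 2.01% were called lower, 50.9% had a positive difference and 24.9% had groups that did not overlap. Those called were Ctsc, for the dipeptidase cathepsin C (-0.60 ± 0.13 SE), Gm2a, for the activator of ganglioside breakdown (-0.59 ± 0.15 SE), and Gusb, for beta-glucuronidase (-0.61 ± 0.15 SE). Ctsc had 7.38, 7.36 and 7.44 in KO hearts, against 8.10, 7.97 and 7.90 in Ctrl hearts (normalized log2 signal), with no overlap. Their limma adjusted p-values were 0.0325, 0.0482 and 0.0495, close to the threshold. The calls of Ctsc and Gm2a were lost when any single array was left out (adjusted p = 0.0513 to 0.145), as was that of Gusb except without KO replicate 1 (0.0854 to 0.164). Median scaling (0.898 to 0.951) and the replicate block (0.0715 to 0.079) also ended all 3 calls. Those of Gm2a and Gusb were further lost with no detection filter (0.0787 and 0.0953) and with every detected probe tested (0.052 and 0.0534). With the mean of detected probes Ctsc was not called (0.0665), nor was Gusb (0.225), whose log2 difference was then -0.28. Over the 17 alternative settings the calls held in 8 for Ctsc, 7 for Gm2a and 7 for Gusb.

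Endosomal and lysosomal ion transporters, which carry the counter-ions that acidification needs, held 6 tested genes, 1 with a positive and 5 with a negative log2 difference and 0 called. Clcn3, for a chloride-proton exchanger of endosomes, had 6.54, 6.10 and 6.54 in KO hearts, against 6.88, 6.91 and 6.79 in Ctrl hearts, a log2 difference of -0.46 ± 0.15 SE (limma adjusted p = 0.123) with no overlap. Hvcn1, for a proton channel, had -0.22 ± 0.18 SE. Groups did not overlap for 24.9% of all genes tested, and 4.25% were called.

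**Figure D4:**
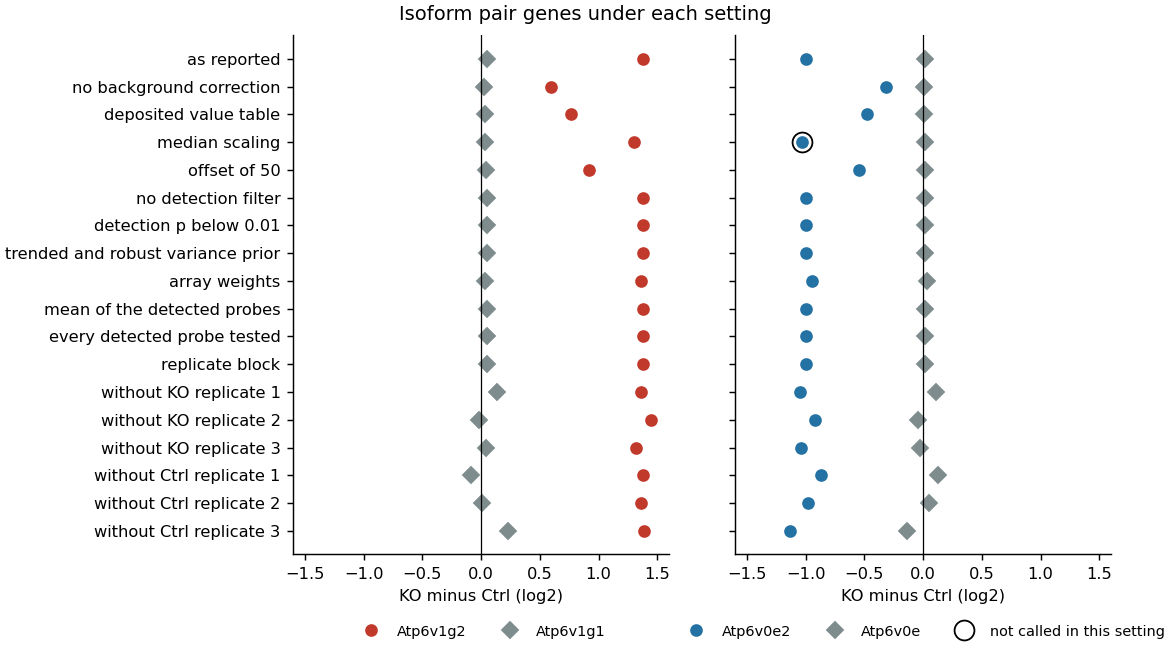
Log2 difference, KO minus Ctrl, of the isoform pair genes under the reported setting and 17 alternatives, 1 per row, with the G pair at left and the e pair at right. Atp6v1g2 ran from 0.60 to 1.45 and Atp6v0e2 from -1.13 to -0.32, and a ring marks the 1 setting in which Atp6v0e2 was not called, rings being drawn for these isoforms alone; Atp6v1g1 and Atp6v0e stayed between -0.13 and 0.23.

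Over the 17 alternative settings Atp6v1g2 was called higher in 17, with a log2 difference of 0.60 to 1.45, and Atp6v0e2 was called lower in 16, with -1.13 to -0.32. The smallest sizes came with no background correction. Atp6v1g1 (-0.08 to 0.23) and Atp6v0e (-0.13 to 0.13) were called in 0 of the 17 and changed sign between them. The median of the 5 partner subunits ran from 0.07 to 0.20 and stayed positive.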

How the data were processed

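The authors deposited intensity values that were not normalized, with a detection p-value for each probe and array per the file headers, and a value table of intensity on a linear scale whose columns share nearly 1 distribution. Its normalization method is not stated in the labels or headers. GenomeStudio is named in the submitters' processing notes. Groups followed the sample records, to which arrays of the first table were matched by ranks over all probes, a choice made after the tables were seen.

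The platform annotation gave 1 gene symbol for 23977 of 25696 probes. The other 1719, with no symbol or more than 1, were left without a name here. For 23961 probes the symbol matched RefSeq as it stood. In R 4.3.3, the neqc function (limma 3.58.1) corrected background and normalized by quantiles, with an offset of 16 and negative controls inferred from the detection p-values. A probe was kept if its detection p was under 0.05 on 3 or more of the 6 arrays, which held for 10407. Each gene was read from its probe of highest mean, giving 7579 genes. KO was compared with Ctrl by limma (lmFit and eBayes, 2-sided), and a call needed an adjusted p (Benjamini-Hochberg, over all genes) under 0.05. Members' single probes were read from the same fit over all 9827 detected probes with a symbol. SE is limma's moderated standard error. Precision is limited by having 3 arrays a group, for which exact permutation allows no p under 0.1. The fit was tested on simulated data.

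The members, lists, tests and rules were chosen with earlier results of these data known. Genes named are the members, all other V-ATPase genes, chromosomal neighbours and closest profiles of the paired genes, and of each list up to 4 called genes or else the 2 with the smallest p; of the cell type lists those bearing on the members are given. Myh6, Lep, Adipoq, Syp and the undetected markers were named after their values were seen. Alternatives covered background, value table, scaling, offset, detection filter, variance prior, array weights, probe choice, replicate block and leaving out each array. Plots used matplotlib 3.10.9 under Python 3.11.15.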

Additional observations from a re-analysis of the deposited data

How the results depend on the processing

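The count of 322 genes called became 554 with no background correction, 589 in the deposited value table, 54 with median scaling, 142 with no detection filter, 558 at offset 50, 645 with a trended and robust variance prior, 586 with array weights and 171 with the replicate number as a block, and it ran from 94 to 380 when 1 array was left out. The shift of Atp6v1g2 over Atp6v1g1 was 0.57 with no background correction, 0.73 in the deposited value table and 0.88 with an offset of 50, and that of Atp6v0e2 over Atp6v0e was -0.33, -0.48 and -0.56 in the same settings. When 1 array was left out the shifts ran from 1.16 to 1.46 and from -1.16 to -0.88, and the partner median from 0.07 to 0.20. With median scaling 1 member was called instead of 2. With the group names of the first table's headers the shifts were -1.33 and 1.01, the partner median was -0.15, and the log2 differences of Atp6v1g2, Atp6v0e2 and Nelfb were -1.38, 0.999 and 1.61; this setting was chosen after seeing the data.

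Sign changes otherwise occurred for uncalled genes near 0. Tcirg1 was 0.00592 with no background correction, 0.00278 in the value table and 0.00431 with an offset of 50, and Atp6v1e1 was 0.0123 with median scaling. When 1 array was left out, Tcirg1 ran from -0.232 to 0.17, Atp6v0a2 from -0.00762 to 0.219, Atp6v0e from -0.13 to 0.128 and Atp6v1g1 from -0.0827 to 0.228. The cause was not tested. The other V-ATPase genes had 0 calls in all 17 alternatives, and in the reported setting 2 of the 10, Atp6v1h and Atp6ap2, had an unadjusted limma p under 0.05. These p-values ranked 1389 and 1477 from the smallest among the 7579 genes tested, so values of that size were common over all genes.

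Deviations from the group mean of arrays with the same replicate number had r of -0.05, -0.0004 and -0.06 over genes. With 3 arrays a group these values are tied to each other, so they cannot exclude that the numbers mark a pairing. With the replicate block Atp6v1g2 and Atp6v0e2 stayed called (limma adjusted p = 0.00412 and 0.0144). With no background correction the log2 differences of these genes were smaller: 0.60 for Atp6v1g2, -0.32 for Atp6v0e2, 0.06 for Atp6v1a, -0.19 for Rragb and -0.74 for Nelfb.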
